A study of Mus musculus with 16 samples.

Results

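The subject is the difference between 2 responses to MI763F, a ligand of the constitutive androstane receptor (CAR) known by its code name: its response in the liver of mice given ethinylestradiol (EE), a synthetic estrogen used to induce cholestasis, and its response without EE. All 16 of the 16 liver libraries enter it, taken by the group in their titles, 4 in each of 4 groups. CV mice received the propylene glycol vehicle. CM mice were gavaged with 2.5 mg/kg of MI763F on 6 days, beginning on day 2, without EE. EV mice received EE at 10 mg/kg by subcutaneous injection for 7 days, and EM mice received that EE course together with the MI763F course of the CM mice. All 4 groups carry the genotype labelled Humanized PXR-CAR-CYP3A4/3A7, in which human forms of 2 xenobiotic receptors and of drug-metabolising enzymes are present, so no group has the ordinary mouse receptors alone as a control. MI763F was formulated in DMSO, PEG300 and corn oil, and it is not stated in the labels if CV and EV mice were given that oral vehicle. The labels used here give no age or sex. They do not state that every library came from a separate animal, so a p-value covers the spread between these libraries, which may be technical.

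For each of 12918 genes tested, the log2 fold change of EM against EV minus that of CM against CV is called the interaction here. A positive interaction means that the ratio of the level with MI763F to the level without it was higher with EE than without EE, and 0 means equal ratios. As background, CAR and its relative PXR are nuclear receptors of hepatocytes that switch on genes for oxidation, for coupling to sulfate or glucuronic acid, and for export of drugs, bilirubin and bile acids. Sulfotransferases of the SULT2A family transfer sulfate to hydroxysteroids and bile acids, which makes these more water soluble. Estrogens at high dose impair bile flow, and bile acids then build up in the liver.

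Libraries held 14115384 to 21473227 estimated counts. Levels are given as CPM, the counts of a gene scaled to a common library size and for composition. The composition factors ranged from 0.833 to 0.91 in the 8 libraries without EE, and from 1.1 to 1.23 in the 8 with it. Hepatocyte markers were present in every library, with all 12 listed genes measured, and their summed level ran from 114291 to 148215 CPM without EE and from 50073 to 73436 CPM with EE. Summed macrophage markers (18 of 18 measured) ran from 446 to 1094 CPM in the 8 libraries without EE and from 2199 to 3625 CPM in the 8 with EE. In bulk tissue fewer cells of a type and less RNA per cell cannot be told apart. EM replicate 1 and CM replicate 2 stood farthest from their groups: by Dixon's test they were the lone outlier of their group in 3.51% and 2.29% of genes, against 0.991% to 1.89% in the other 14 libraries. Where leaving out either ends or makes a call of a named gene, the value without it is given.

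The response to MI763F differed with EE for 17 genes, 0.132% of those tested, at a threshold of 0.05 on the Benjamini-Hochberg adjusted p of the quasi-likelihood test in edgeR. Of these, 13 had a higher response with EE (0.101% of genes tested) and 4 a lower one (0.0310%). The 13 hold 5 genes of the Sult2a cluster, the organic anion transporter family member Slc22a26, the carboxylesterases Ces1c and Ces1d, and 5 genes of other kinds. Without EE, the log2 response of the 13 lay between -0.58 and 0.36 and 0 of them passed the test of CM against CV, in which 0.0929% of all genes passed. With EE it lay between 0.40 and 4.27, and 12 of the 13 passed the test of EM against EV, in which 1.69% of all genes passed. Both of these comparisons are components of the interaction, so they describe how each call arose and are not separate support for it. At an unadjusted p under 0.05 there were 1759 genes, 13.6% of those tested, 1045 with a positive interaction (8.09%) and 714 with a negative one (5.53%).

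All 13 fell with EE alone and passed the test of EV against CV, which 50.4% of all genes passed in either direction. The EV and CV levels also enter the interaction, so this fall is not separate support for the calls. Their levels in EV were 0.367% to 39.8% of those in CV, and in EM they were 4.18% to 52.4% of those in CV. In 12 of the 13 every EM library lay above every EV library, as in 6.56% of all genes tested, and Fuom was the exception. In 2 of the 13, Sult2a1 and Sult2a2, every CM library lay above every CV library, as in 2.24% of all genes. In Fuom every CM library lay below every CV library, as in 1.90%. These overlaps are read from the libraries that gave the calls, so they describe the 13 and are not separate support.

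The Sult2a genes are shown first because they gave the smallest p-value and 5 of the 17 calls. In RefSeq's annotation of GRCm38.p6 the 8 Sult2a genes stand in a row on chromosome 7, in the order Sult2a5, Sult2a2, Sult2a1, Sult2a4, Sult2a3, Sult2a6, Sult2a8 and Sult2a7, with no other protein-coding gene between them. The promoters below are the 250 bases before the start site, 5′ to 3′ on the strand of the gene, from RefSeq and GRCm38.p6. They are chr7:13623717-13623966 (plus strand) for Sult2a5, chr7:14254871-14255120 (minus) for Sult2a6, chr7:13989589-13989838 (minus) for Sult2a4 and chr7:14123049-14123298 (minus) for Sult2a3. These 4 are shown because each holds a match to the marked stretch. Sult2a8 had 2 entries, neither with a match, and is not shown, and Sult2a1, Sult2a2 and Sult2a7 had no entry. Capitals mark a match to GTNATGAAC, extended to GGTCATGAAC where the longer form is present.
Sult2a5: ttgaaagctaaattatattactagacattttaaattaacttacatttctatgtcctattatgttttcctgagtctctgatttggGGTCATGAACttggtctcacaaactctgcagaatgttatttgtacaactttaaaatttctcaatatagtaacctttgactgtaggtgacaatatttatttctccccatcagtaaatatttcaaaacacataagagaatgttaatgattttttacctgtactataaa
Sult2a6: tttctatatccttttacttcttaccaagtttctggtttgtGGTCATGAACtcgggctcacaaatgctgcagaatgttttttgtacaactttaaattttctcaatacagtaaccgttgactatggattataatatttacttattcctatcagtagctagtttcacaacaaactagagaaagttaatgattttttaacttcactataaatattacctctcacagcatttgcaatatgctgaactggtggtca
Sult2a4: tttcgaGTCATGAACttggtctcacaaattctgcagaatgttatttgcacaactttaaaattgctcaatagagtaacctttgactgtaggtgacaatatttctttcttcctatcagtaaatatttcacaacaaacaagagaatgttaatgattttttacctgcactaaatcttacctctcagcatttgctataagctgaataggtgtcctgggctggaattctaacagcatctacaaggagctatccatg
Sult2a3: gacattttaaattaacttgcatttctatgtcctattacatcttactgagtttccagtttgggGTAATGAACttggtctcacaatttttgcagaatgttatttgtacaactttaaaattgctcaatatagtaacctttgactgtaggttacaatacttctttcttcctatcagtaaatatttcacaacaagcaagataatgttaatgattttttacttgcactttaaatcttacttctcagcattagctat

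Inverted half-sites with few or no bases between them are a known binding arrangement for nuclear receptors, and the marked stretch was chosen after these 4 sequences were seen. The longer form, GGTCATGAAC, is GGTCA followed without a gap by the reverse complement of GTTCA. Read on both strands, GTNATGAAC was present in 175 of 32851 promoters of that length (0.533%) and the longer form, which contains it, in 16 (0.0487%). The longer form was present in Sult2a5, beginning 166 bases before the start site, and in Sult2a6, 210 bases before it. Sult2a4 and Sult2a3 held the shorter form, beginning 244 and 188 bases before their start sites. These 4 sequences also resemble each other closely after the marked stretch. Their matches are therefore not independent, and the shares over all promoters do not measure how rare they are together. Of the 17 called genes 11 had a promoter entry, and 3 of those held GTNATGAAC. The half-site AGTTCA, also searched, was in 5 of the 11 (Fuom, Sult2a4, Sult2a5, Sult2a6 and Ufm1) and in 11.8% of all promoters. In these Sult2a genes its reverse complement overlaps the marked stretch. The half-site AGGTCA was in 1 of the 11, Prodh2, and in 14% of all promoters. A match is a run of letters, not a measured binding site.

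Sult2a5 measured 396, 403, 311 and 358 CPM in CV and 362, 493, 489 and 413 CPM in CM. It measured 7.75, 7.25, 9.12 and 8.35 CPM in EV and 42.6, 74.6, 101 and 70.9 CPM in EM. The CV and CM libraries overlap, while all 4 EM libraries lie above all 4 EV libraries and below every library without EE. The log2 response was 0.26 ± 0.19 (SE, n = 4 per group) without EE and 3.15 ± 0.21 with EE, an interaction of 2.89 ± 0.28 (adjusted p = 0.000414).

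Sult2a1, a sulfotransferase acting on bile acids and steroids, had the highest interaction of the 13. It measured 1685, 1620.4, 1288 and 1621 CPM in CV and 1708, 2309, 2129 and 1839 CPM in CM. It measured 25.8, 12, 21.4 and 24.5 CPM in EV and 89.8, 523, 559 and 445 CPM in EM. EM replicate 1 is the low library of its group, and it is still above every EV library. The log2 response was 0.36 ± 0.39 without EE and 4.27 ± 0.45 with EE, an interaction of 3.91 ± 0.58 (adjusted p = 0.0139). Without EM replicate 1 the interaction was 4.24 (adjusted p = 4.27e-06).

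Sult2a6 measured 131, 157, 90.2 and 112 CPM in CV and 104, 157, 137 and 138 CPM in CM. With EE it measured 5.43, 3.84, 4.89 and 4.73 CPM in EV and 19.5, 31.3, 36.1 and 41.4 CPM in EM. Groups without EE overlap and groups with EE do not. Its interaction was 2.63 ± 0.31 (adjusted p = 0.00188).

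Sult2a2 measured 701 to 812 CPM in CV, 865 to 1121 CPM in CM, 26 to 47.6 CPM in EV and 132 to 306 CPM in EM, with an interaction of 2.28 ± 0.32 (adjusted p = 0.00988). Sult2a4 measured 66.4 to 89 CPM in CV, 79.6 to 104 CPM in CM, 2.38 to 5.04 CPM in EV and 11.2 to 30.9 CPM in EM, with an interaction of 2.34 ± 0.38 (adjusted p = 0.0223). The Sult2a4 call was lost without CM replicate 1, EV replicate 1, EM replicate 3 or EM replicate 4 (highest adjusted p = 0.0661), and its value stayed between 2.14 and 2.58 whichever library was left out.

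The other 3 Sult2a genes had positive interactions that did not pass the test. They were 2.63 ± 0.80 for Sult2a3 (adjusted p = 0.162), 2.32 ± 0.76 for Sult2a8 (adjusted p = 0.187) and 2.86 ± 1.37 for Sult2a7 (adjusted p = 0.381). CM replicate 2 stands apart in all 3. In that library Sult2a7 measured 0.705 CPM, against 449.9 to 562 CPM in the other CM libraries, and it was the only gene that lay under 1 CPM in this library and at 20 CPM or more in the other 3. Sult2a8 measured 7.63 CPM there against 78.7 to 108 CPM, and Sult2a3 31.5 CPM against 126 to 188 CPM. Without CM replicate 2, Sult2a7 (2.44, adjusted p = 0.0132) and Sult2a8 (1.95, adjusted p = 0.0373) passed. Without EM replicate 1, Sult2a3 passed (2.98, adjusted p = 0.0323).

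These genes resemble each other closely, and how reads were divided among them is uncertain, so the sum of the 8 is also given. The summed level was 3366 to 3858 CPM in CV, 3907 to 4583 CPM in CM, 63.2 to 106 CPM in EV and 324 to 1130.3 CPM in EM. Every CM library was above every CV library, and every EM library above every EV library. Group means were 3623 ± 202, 4199 ± 287, 92.4 ± 19.8 and 856 ± 363 CPM (SD, n = 4). On the log2 scale the group means of the summed level gave an interaction of 2.88, or 2.81 with Sult2a7 left out, as a description with no test.

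Slc22a26 had the second largest positive interaction of the called genes. It measured 200.02, 148, 152 and 156 CPM in CV and 209, 121, 225 and 182 CPM in CM. It measured 0.696, 0.34, 0.845 and 0.525 CPM in EV and 3.84, 10.5, 8.97 and 4.08 CPM in EM. The log2 response was 0.17 ± 0.27 without EE and 3.51 ± 0.40 with EE, an interaction of 3.34 ± 0.49 (adjusted p = 0.0122). Its EV level was 0.367% of CV and its EM level 4.18% of CV, so it stayed far below the libraries without EE.

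The plot of levels by library shows Sult2a1, Sult2a5, Slc22a26, Prodh2 and Ces1c beside 2 genes with a lower response under EE and beside Cyp2b10, whose responses are compared further on.

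**Figure D1:**
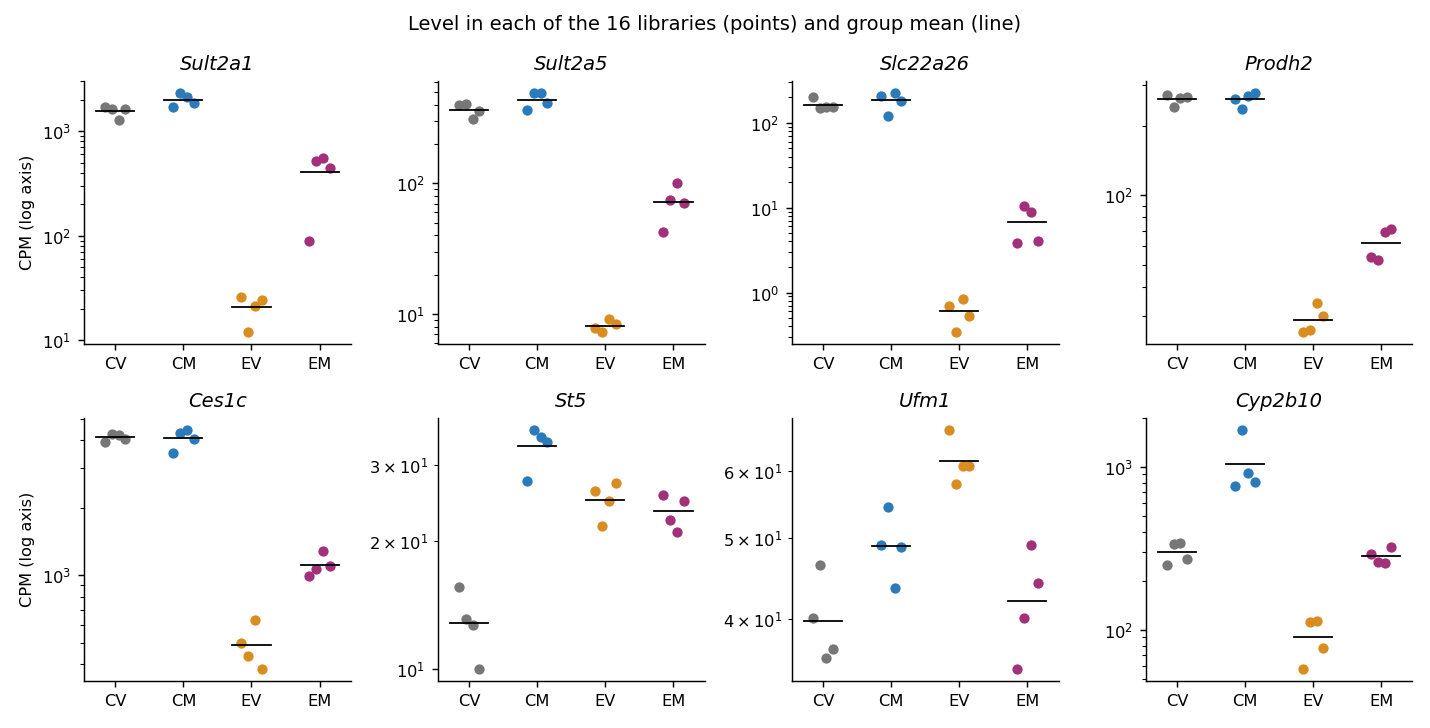
CPM on a log axis in each of the 16 libraries (points) with the group mean (line) for 8 genes, by group: CV vehicle, CM MI763F, EV EE, EM both. For Sult2a5 the EM points (42.6 to 101 CPM) lie above the EV points (7.25 to 9.12 CPM) while CV and CM overlap, for St5 the CM points lie above the CV points while EV and EM overlap, and for Cyp2b10 both pairs are apart.

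Carboxylesterases hydrolyse esters and amides of lipids and drugs. Ces1c measured 3949.9, 4269, 4218 and 4066 CPM in CV and 3498, 4331, 4462 and 4059.6 CPM in CM. With EE it measured 499, 437, 629.5 and 382 CPM in EV and 997, 1061, 1279.6 and 1100.1 CPM in EM. The log2 response was -0.01 ± 0.13 without EE and 1.19 ± 0.13 with EE, an interaction of 1.20 ± 0.19 (adjusted p = 0.0179), and the call was lost without EV replicate 2 (adjusted p = 0.0553). Ces1d, a gene of the same cluster on chromosome 8, measured 770.1 to 981 CPM in CV, 852 to 1416 CPM in CM, 44.5 to 82.8 CPM in EV and 199 to 276 CPM in EM. Its interaction was 1.62 ± 0.27 (adjusted p = 0.0223), with a log2 response of 0.32 ± 0.19 without EE and 1.94 ± 0.20 with EE. The Ces1d call was lost without CM replicate 1, EV replicates 1 or 2, or EM replicates 3 or 4 (highest adjusted p = 0.0850). Ces1 genes are close copies, so the division of reads between them is uncertain as well.

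Prodh2, the hydroxyproline dehydrogenase of liver and kidney, had a log2 response near 0 without EE and rose with it. It measured 272, 241, 263 and 266 CPM in CV and 262, 236, 269 and 277 CPM in CM. It measured 25.4, 26.1, 33.9 and 30 CPM in EV and 53.7, 52.4, 69.2 and 71.6 CPM in EM. The log2 response was 0.00 ± 0.11 without EE and 1.10 ± 0.12 with EE, an interaction of 1.09 ± 0.16 (adjusted p = 0.0122).

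The remaining 4 of the 13 had smaller interactions. For Ttc36, which encodes a tetratricopeptide repeat protein, the interaction was 0.87 ± 0.14 (adjusted p = 0.0223), with 995 to 1257 CPM in CV, 805 to 1020.0 CPM in CM, 269 to 315 CPM in EV and 389 to 477 CPM in EM. For Gchfr, the feedback regulator of the enzyme that begins tetrahydrobiopterin synthesis, it was 0.84 ± 0.14 (adjusted p = 0.0223), with 65.9 to 70.8 CPM in EV and 102 to 119 CPM in EM. For Nlrp6, an innate immune sensor, it was 0.98 ± 0.16 (adjusted p = 0.0223), with 13.5 to 17.9 CPM in EV and 23.5 to 35.4 CPM in EM. Each of these 3 calls was lost without any of several libraries, EV replicates 1 and 2 and EM replicate 4 among them (highest adjusted p = 0.0882, 0.0920 and 0.0920).

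Fuom, the fucose mutarotase, differs from the other 12. It measured 50, 54.4, 49.9 and 46.3 CPM in CV and 31.6, 32.2, 36.1 and 34.6 CPM in CM, so the CM libraries lie below the CV libraries. It measured 20.2, 19.4, 19.7 and 20.7 CPM in EV and 35.1, 24.6, 24.9 and 20.5 CPM in EM, and these overlap. The log2 response was -0.58 ± 0.12 without EE (adjusted p = 0.109) and 0.40 ± 0.12 with EE (adjusted p = 0.142), neither of which passed. The interaction of 0.97 ± 0.18 passed (adjusted p = 0.0446) and was lost in 13 of the 25 alternative settings, including 12 in which 1 library was left out.

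Of the 4 genes with a lower response under EE, St5 had the smallest adjusted p among those detected in every group. It measured 15.6, 13.1, 12.7 and 10 CPM in CV, and 27.6, 36.4, 35 and 34.1 CPM in CM. It measured 26.1, 21.7, 24.8 and 27.3 CPM in EV and 25.5, 22.4, 21 and 24.7 CPM in EM. The CM libraries lie above the CV libraries, and the EV and EM libraries overlap. St5 rose with MI763F without EE (1.37 ± 0.13, adjusted p = 0.000341), while its log2 response with EE was -0.09 ± 0.13 (adjusted p = 0.845), an interaction of -1.46 ± 0.18 (adjusted p = 0.00248). The EV level was 194% of CV and the EM level 182%.

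Ufm1, a ubiquitin-like modifier of proteins at the endoplasmic reticulum, measured 35.9 to 46.4 CPM in CV, 43.5 to 54.4 CPM in CM, 57.9 to 67.3 CPM in EV and 34.9 to 49 CPM in EM. It fell with MI763F under EE (-0.55 ± 0.11, adjusted p = 0.0208) and did not pass without EE (0.30 ± 0.11, adjusted p = 0.338). The interaction of -0.85 ± 0.15 (adjusted p = 0.0452) was lost in 12 settings. The entry for Myl12b, a regulatory light chain of myosin, is 1 of 2 identifiers that share this symbol (here ENSMUSG00000117098). It measured 77.2 to 99.9 CPM in CV, 114 to 126 CPM in CM, 145 to 178 CPM in EV and 119.6 to 136 CPM in EM, with an interaction of -0.75 ± 0.12 (adjusted p = 0.0223). The call was lost without CM replicate 1, EV replicate 1 or EM replicate 4 (highest adjusted p = 0.0778). Neither of its 2 responses passed (adjusted p = 0.109 without EE and 0.0947 with EE).

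Gm20075, a predicted pseudogene, was listed at 0 counts in all 4 CV libraries, and its fitted interaction depends on the prior count, so it gives no size. It measured 1.65 to 3.91 CPM in CM, 2.29 to 3.45 CPM in EV and 0.591 to 2.68 CPM in EM. Against a floor of 3 counts per library in CV (0.206 CPM), CM was at least 12.1-fold higher, EV at least 13.8-fold higher and EM at least 7.08-fold higher.

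The plot of the 2 responses against each other sets the called genes beside CAR and PXR target genes that were not called.

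**Figure D2:**
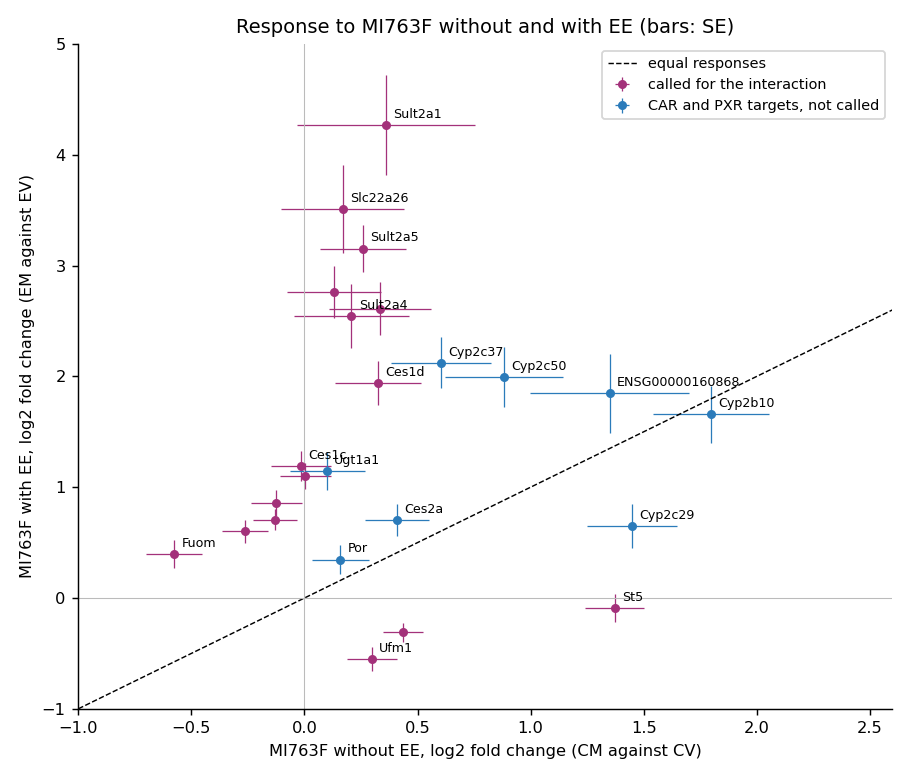
Log2 fold change of EM against EV (y axis) against that of CM against CV (x axis), with SE bars and a dashed line of equal responses. Shown are 16 of the 17 called genes (Gm20075, at 0 in CV, is left out) and 8 entries drawn as CAR and PXR targets that were not called. Among the 8 is ENSG00000160868, an entry that the name table does not pair with a symbol. Called genes of the Sult2a cluster lie near 0 on the x axis and between 2.55 and 4.27 on the y axis, whereas Cyp2b10 lies close to the dashed line at 1.80 and 1.66.

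For Cyp2b10, the classical CAR target, no difference between the 2 responses was detected. It measured 249.8, 339, 339 and 274 CPM in CV and 764, 1691, 919.8 and 808 CPM in CM, and 57.6, 112, 114 and 77 CPM in EV and 294, 260.0, 256 and 324 CPM in EM. Both pairs of groups are apart, with CM replicate 2 as the high library of its group. It rose without EE (1.80 ± 0.26, adjusted p = 0.00953) and with EE (1.66 ± 0.26, adjusted p = 0.00549). Its interaction was -0.14 with a 95% interval from -0.90 to 0.61, so the 2 responses may differ by up to that much in either direction. Without CM replicate 2 the interaction was 0.19.

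Outside the Sult2a cluster, CAR and PXR targets gave interactions on both sides of 0, none of them passing with all 16 libraries. For Cyp2c29, a further CAR target, CM measured 7796 to 15506 CPM against 3063 to 4397 CPM in CV, and EM 3987 to 5977 CPM against 2816 to 3204 CPM in EV. Its interaction was -0.80 (95% interval -1.39 to -0.21, adjusted p = 0.208). Cyp2c37 had an interaction of 1.52 ± 0.31 (adjusted p = 0.0615), with 47.5 to 79 CPM in EV and 194 to 341 CPM in EM. Cyp2b9, which in mouse liver is female-predominant, had 2.96 ± 0.58 (adjusted p = 0.0600). Ugt1a1, the bilirubin glucuronosyltransferase, had 1.05 ± 0.24 (adjusted p = 0.0737), with 145 to 171 CPM in EV and 213 to 430.4 CPM in EM, of which 213 CPM is EM replicate 1. Cyp2c50 had 1.11 ± 0.37 (adjusted p = 0.185). Without EM replicate 1, Cyp2b9 (3.23, adjusted p = 0.00670), Ugt1a1 (1.23, adjusted p = 0.000718) and Cyp2c37 (1.48, adjusted p = 0.0413) passed.

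Por, the reductase that supplies electrons to cytochromes P450, had an interaction of 0.19 (95% interval -0.20 to 0.57), and the carboxylesterase Ces2a 0.29 (-0.14 to 0.72). Mouse Nr1i3, which encodes CAR, had 0.37 (-0.25 to 0.99) and measured 24.6 to 37.3 CPM in CV and 10.1 to 16.1 CPM in EV. Reads of mouse receptor genes can be shared with the human copies in these animals. The data hold 3 entries with human-format identifiers that the name table does not pair with symbols. Their interactions were 0.50 (-0.55 to 1.54) for ENSG00000160868, 0.39 (-0.24 to 1.02) for ENSG00000143257 and -0.16 (-0.45 to 0.13) for ENSG00000144852. The widths of these intervals set what the comparison can show. Over all genes the median SE of an interaction was 0.246, against 0.173 for EM against EV and 0.174 for CM against CV, and the median 95% interval reached 0.524 to either side.

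Of the 48 CAR and PXR targets measured, 3 were called, all Sult2a genes, against 0.101% of all genes called higher. At an unadjusted p under 0.05, 16 were positive and 2 negative, which is 37.5% of the list against 13.6% of all genes. The median interaction was 0.36, against 0.01 over all genes, with a median log2 response of 0.34 without EE and 0.70 with EE.

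No bile acid synthesis or conjugation gene passed, of 19 measured. At an unadjusted p under 0.05, 9 were positive and 1 negative (52.6% of the list against 13.6% of all genes), with a median interaction of 0.49. Cyp7a1, whose enzyme limits the rate of the classical bile acid pathway, measured 76.7, 60.4, 46.3 and 66.2 CPM in CV and 14.7, 6.99, 30.2 and 58.2 CPM in CM. It measured 1.62, 5.98, 14.1 and 1.16 CPM in EV and 13, 12.7, 36 and 26.2 CPM in EM. Both pairs of groups overlap, and its interaction of 3.14 ± 1.03 did not pass (adjusted p = 0.187). The oxysterol hydroxylase Cyp39a1 measured 2.43 to 4.52 CPM in EV and 6.35 to 19.1 CPM in EM, against 38.4 to 62.9 CPM in CV and 24.6 to 63 CPM in CM, with an interaction of 2.01 ± 0.46 (adjusted p = 0.0770). Cyp39a1 passed without EM replicate 1, its lowest EM library (2.25, adjusted p = 0.0120).

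Cyp7b1, another oxysterol hydroxylase, had a negative interaction. It measured 13.2 to 23.6 CPM in CV, 18.5 to 27.5 CPM in CM, 1247 to 1487 CPM in EV and 775 to 966 CPM in EM, so that every EM library lies below every EV library, as in 3.98% of all genes. Its interaction was -0.93 ± 0.22 (adjusted p = 0.0770), and it passed without EM replicate 1 (-0.98, adjusted p = 0.0473). Cyp8b1, needed for cholic acid, had 1.90 ± 0.82 (adjusted p = 0.333) and Cyp27a1, which oxidises the sterol side chain, 0.59 ± 0.21 (adjusted p = 0.207).

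Of 19 bile acid and sterol transporters measured, Slc22a26 was the only one called, against 0.101% of all genes called higher. At an unadjusted p under 0.05, 6 were positive and 0 negative (31.6% against 13.6% of all genes). The organic anion transporter Slc22a7 measured 20.7 to 35.9 CPM in CV, 4.49 to 35.2 CPM in CM, 0.0928 to 0.362 CPM in EV and 1.17 to 1.82 CPM in EM. Its interaction of 3.07 ± 0.78 did not pass (adjusted p = 0.0990), and it passed without CM replicate 2, the library at 4.49 CPM (2.74, adjusted p = 0.0462). The bile acid uptake carrier Slc10a1 had 0.83 ± 0.24 (adjusted p = 0.142), the bile salt export pump Abcb11 0.48 ± 0.24 (adjusted p = 0.409), the conjugate exporter Abcc2 0.37 ± 0.19 (adjusted p = 0.408) and the bile acid receptor gene Nr1h4 0.57 ± 0.19 (adjusted p = 0.181). Of these 4, Slc10a1 passed without EM replicate 1 (0.96, adjusted p = 0.0403).

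Just outside the threshold, 7 genes shared an adjusted p of 0.0542. Mat1a, which makes the methyl donor S-adenosylmethionine, was among them at 1.24 ± 0.24, with 1938 to 2055 CPM in CV, 1264 to 1793 CPM in CM, 317 to 476 CPM in EV and 510.2 to 860.0 CPM in EM. Gulo, the last enzyme of vitamin C synthesis, was at 1.04 ± 0.20 and the deubiquitinase Otud1 at -1.19 ± 0.22. Without EM replicate 1, Mat1a (1.37, adjusted p = 0.00798), Gulo (1.14, adjusted p = 0.00925) and Otud1 (-1.28, adjusted p = 0.0159) passed. Just inside the threshold, Ufm1 had 0.0452 and Fuom 0.0446, and both were lost without CM replicate 2 (adjusted p = 0.0731 for each).

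An interaction on the log2 scale compares ratios, and the amounts can compare differently where EE has lowered the starting level. For Sult2a1, CM exceeded CV by 443 ± 163 CPM (SE) and EM exceeded EV by 383 ± 107 CPM, a difference of differences of -59.6 ± 196 CPM. For Sult2a5 the gains were 72.3 ± 38.0 and 64.1 ± 11.9 CPM, and for Slc22a26 they were 20.3 ± 25.8 and 6.24 ± 1.70 CPM. For Ces1c the change was -38.1 ± 226 CPM without EE and 622 ± 80.6 CPM with EE, a difference of 661 ± 239.7 CPM. Prodh2 differed by 32.3 ± 12.4 CPM in the same direction. Of the 13 genes, 6 had a positive difference of amounts beyond 2 SE, 7 were within 2 SE of 0 and 0 were negative beyond 2 SE. The 7 within 2 SE were all 5 called Sult2a genes, Slc22a26 and Ces1d. All 4 genes with a negative interaction had a negative difference of amounts beyond 2 SE. Cyp2b10, with near-equal ratios, gained 745 ± 219 CPM without EE and 194 ± 21.1 CPM with EE, a difference of -551 ± 219.9 CPM. These amounts were compared without a test.

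The gene lists describe the direction of the interaction beyond the calls. They overlap: Sult2a1, Sult2a2 and Sult2a5 are in the lists of CAR and PXR targets, sulfonation and female-predominant genes, and Slc22a26 in the last of these as well. The female-predominant list had the highest median, 0.85 over 27 measured genes, with 4 called, against 0.101% of all genes called higher. At an unadjusted p under 0.05, 12 were positive and 1 negative, 48.1% of the list against 13.6% of all genes. The median log2 response of that list was 0.17 without EE and 1.06 with EE. Sulfonation genes had a median of 0.72 over 19 genes, 4 of them called, against 0.101% of all genes called higher. Under an unadjusted p of 0.05 were 47.4% of them, against 13.6% of all genes.

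The metabolic lists held 0 calls, and their medians lay on both sides of that of all genes. Of 26 cholesterol synthesis and uptake genes 25 had a positive interaction, with a median of 0.74, 6 at an unadjusted p under 0.05 (23.1% against 13.6% of all genes) and 0 called, and Tm7sf2, a sterol reductase, was at 1.09 ± 0.38 (adjusted p = 0.209). The median log2 response of these genes was -0.12 without EE and 0.65 with EE. Glucose and glycogen genes had a median interaction of 0.47 over 20 genes, and fatty acid and triglyceride synthesis genes 0.29 over 25. At an unadjusted p under 0.05, 9 glucose and glycogen genes were positive and 3 negative (60% against 13.6% of all genes). In the fatty acid and triglyceride list 7 were positive and 3 negative at that p (40%). Of 28 fatty acid oxidation genes and PPARA targets 20 were negative, with a median of -0.25. At an unadjusted p under 0.05, 2 were positive and 5 negative (25% of the list against 13.6% of all genes). Of 26 hepatocyte secreted protein genes 24 were positive, with a median of 0.44 and 16 at an unadjusted p under 0.05 (61.5% against 13.6% of all genes). Apoa2, an apolipoprotein of high-density lipoprotein, was at 0.88 ± 0.19 (adjusted p = 0.0671) and coagulation factor F10 at 0.64 ± 0.14 (adjusted p = 0.0686). Among 20 pericentral genes, which are expressed near the central vein, 15 were positive with a median of 0.45. At an unadjusted p under 0.05, 9 were positive and 1 negative (50% against 13.6% of all genes). Cyp2e1 was at 1.69 ± 0.38 (adjusted p = 0.0737) and glutamine synthetase Glul at 0.92 ± 0.20 (adjusted p = 0.0671). The 20 periportal genes, expressed near the portal vein, moved the same way, 14 of them positive with a median of 0.37. Under that unadjusted p were 6 positive and 2 negative periportal genes (40% of the list). All 4 of Apoa2 (0.94, adjusted p = 0.0279), F10 (0.69, adjusted p = 0.0302), Cyp2e1 (1.86, adjusted p = 0.0207) and Glul (1.04, adjusted p = 0.00983) passed without EM replicate 1.

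Proliferation, immediate early and oxidative stress genes had medians below 0, again with 0 called. Of 32 proliferation genes 30 were negative, with a median of -1.05 and 8 at an unadjusted p under 0.05 (25% of the list, against 5.53% of all genes negative at that p). Their median log2 response was 0.50 without EE and -0.39 with EE. Top2a, a topoisomerase of dividing cells, measured 0.236 to 0.997 CPM in CV and 1.2 to 1.93 CPM in CM, so its ratio rests on few counts. It measured 13.2 to 17.5 CPM in EV and 22.3, 6.83, 5.95 and 6.18 CPM in EM, where replicate 1 alone is above the EV libraries (interaction -2.34 ± 0.67, adjusted p = 0.140). Without that library the interaction passed (-3.04, adjusted p = 0.00780).

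Of 21 immediate early genes, which respond within minutes to growth and stress signals, 19 were negative with a median of -0.88. Under an unadjusted p of 0.05 were 7 of these genes (33.3% against 13.6% of all genes). Their median response was 1.04 without EE and 0.13 with EE. Dusp1, a phosphatase gene of this group, measured 18.3 to 26.8 CPM in CV and 39.5 to 93.5 CPM in CM, and 22.6 to 36.2 CPM in EV and 27.2 to 48.6 CPM in EM (interaction -1.35 ± 0.37, adjusted p = 0.120). The lipolysis inhibitor G0s2 was at -1.62 ± 0.31 (adjusted p = 0.0559) and passed without EM replicate 1 (-1.84, adjusted p = 0.00897). Of 18 oxidative stress genes 15 were negative with a median of -0.57. Under an unadjusted p of 0.05 were 6 (33.3% against 13.6% of all genes), glutathione reductase Gsr among them at -0.65 ± 0.19 (adjusted p = 0.144).

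The list of integrated and endoplasmic reticulum stress genes had 18 of 25 positive and a median of 0.25. At an unadjusted p under 0.05, 1 was positive and 1 negative. That is 8% of the list, below the 13.6% of all genes, so no direction is read from this list. Its member Gdf15, a stress cytokine, had the lowest interaction of that list, -1.57 ± 0.43 (adjusted p = 0.121).

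Most lists of other cell types moved little or downward, and their part in the results above was not tested. Of 7 cholangiocyte markers measured 6 were negative (median -0.65, 3 at an unadjusted p under 0.05, 42.9% of the list against 13.6% of all genes). Erythroid markers went the other way, 4 of 5 positive (median 0.23), with 0 at an unadjusted p under 0.05. Their median was -0.0087 without CV replicate 4. All 17 sinusoidal endothelial markers were negative (median -0.35), with 0 at an unadjusted p under 0.05. Of 17 lymphocyte and neutrophil markers 16 were negative (median -0.63, 4 at an unadjusted p under 0.05, 23.5% of the list against 13.6% of all genes). The 18 macrophage markers had a median of -0.03 and 0 at an unadjusted p under 0.05. Hepatocyte markers had a median of 0.24 over 12 genes. When library totals replaced the composition factors, the median of all genes was -0.0997, a shift of -0.11, and relative to it the list medians named here kept their sign. The sign of the macrophage median also turned without any of CV replicate 1, CM replicate 2, EM replicate 3 or EM replicate 4, with values up to 0.14.

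**Figure D3:**
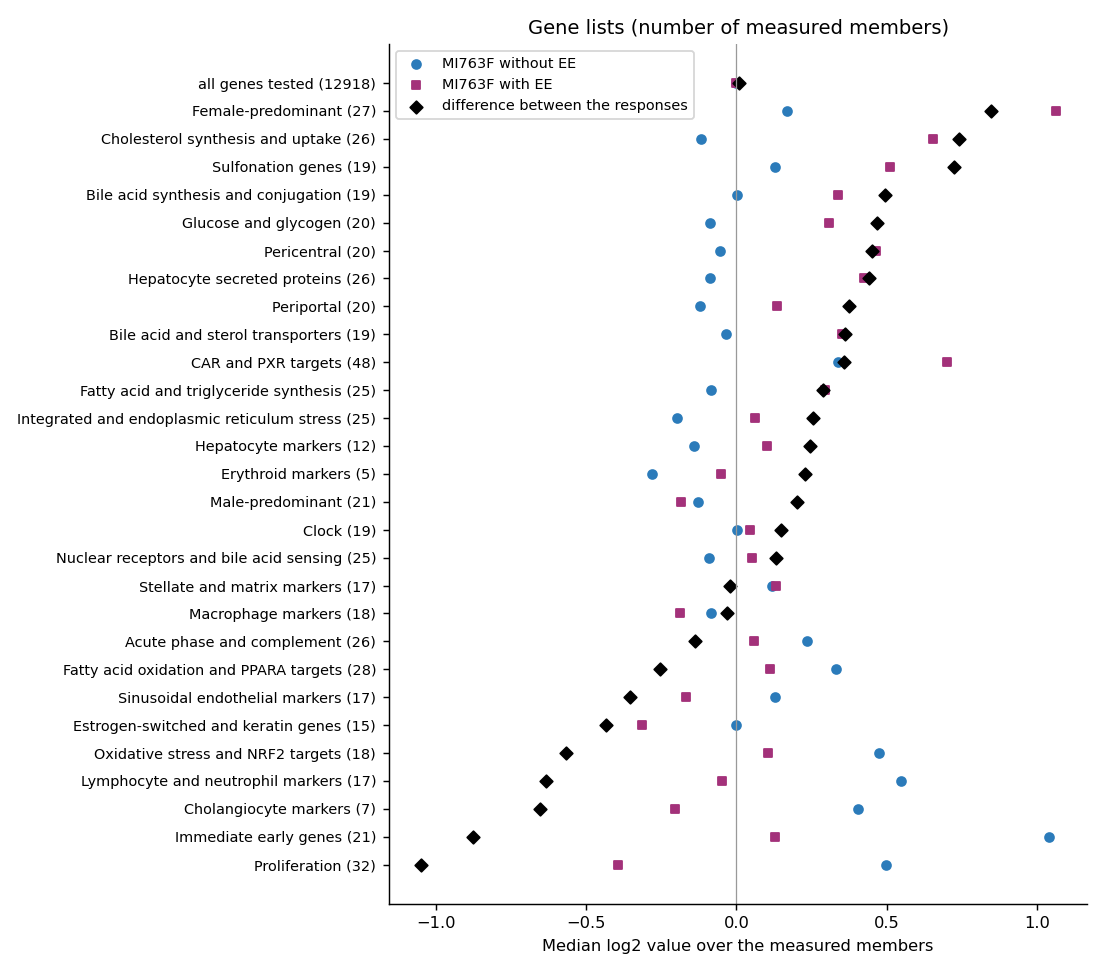
Median log2 value over the measured members of each list with at least 5 members (number in brackets), for the response without EE (circles), the response with EE (squares) and their difference (diamonds), with all genes at the end. Female-predominant and cholesterol genes have the highest difference (0.85 and 0.74) and proliferation genes the lowest (-1.05), against 0.01 for all genes.

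The number of called genes changed with the libraries and with the test. It was 17 with all 16 libraries, 208 without EM replicate 1 and 95 without CM replicate 4, and 10 without EV replicate 1, EV replicate 2 or EM replicate 4. It was 157 without CM replicate 2 and EM replicate 1 together. Of the 38 genes named here that did not pass, 16 passed without EM replicate 1 and 3 without CM replicate 2. DESeq2 called 450 genes, 298 higher and 152 lower. With library totals 26 genes were called, 46.2% of them higher against 76.5% with composition factors. Sult2a1, Sult2a2, Sult2a5, Sult2a6, Slc22a26, Prodh2, St5 and Gm20075 were called in all 25 alternative settings, and all 17 kept their direction in all of them.

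**Figure D4:**
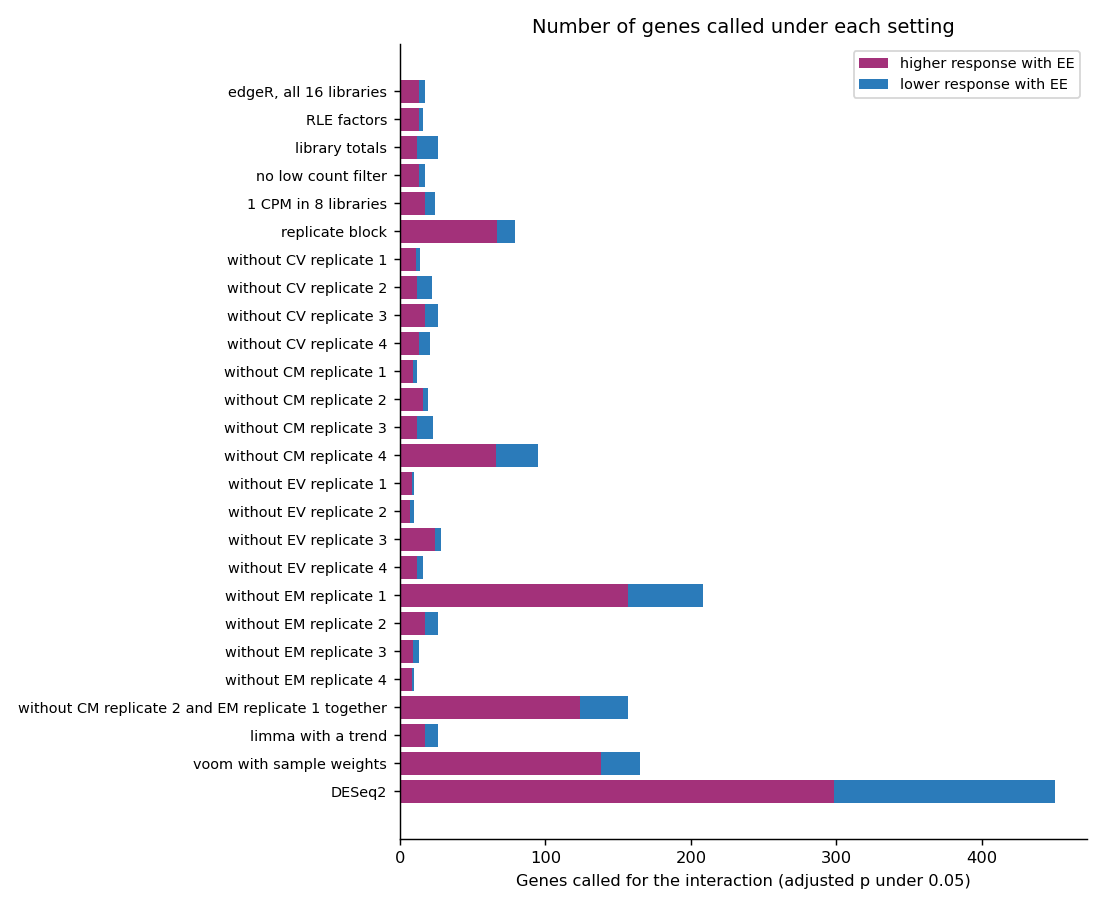
Number of genes called for the interaction (adjusted p under 0.05) under the reported fit and each of 25 alternative settings, split into higher and lower response with EE. The bars run from 10 genes (3 of the left-out libraries) to 450 (DESeq2), against 17 in the reported fit.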

How the data were processed

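Liver poly(A) RNA was sequenced in 16 libraries. Per the submitters' processing notes, GRCm39, STAR and Salmon were used, without versions or roles; the sources used here do not give the annotation, counting step or strand handling. The estimated counts deposited by the authors are whole numbers for 13006 genes and were tested as deposited. Groups came from titles, doses and days from the labels.

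Counts were filtered with filterByExpr (12918 genes kept), scaled with TMM and modelled by robust glmQLFit of edgeR 4.0.16 (R 4.3.3), with 1 coefficient for each group and 12 residual degrees of freedom, with Benjamini-Hochberg adjustment over all genes. An SE is the estimate divided by the square root of F. Symbols came from GENCODE mouse M21 (12692 identifiers matched), and identifiers sharing a symbol were kept apart, which left Ddit3 out of its list. Libraries held 14115384 to 21473227 estimated counts, the biological coefficient of variation was 0.284, and the floor is approximate and covers counting error alone.

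The members, the 29 gene lists and the naming rule were chosen with earlier results of these data known. The rule names all called genes (if 24 or fewer), up to 2 members of each list by unadjusted p, and a fixed set of CAR, PXR and bile acid genes. Sult2a3, Sult2a7, Sult2a8, Mat1a and Otud1 were added after their values were seen, and not every gene the rule names is printed. Alternatives were RLE factors, library totals, other filters, a replicate block, left-out libraries, limma 3.58.1 and DESeq2 1.42.0. The procedure was tested on simulated data.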

Additional observations from a re-analysis of the deposited data

Results flagged for a closer look

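For 17 genes the response to MI763F differed with EE by the test of the difference itself. The log2 interaction was 2.89 for Sult2a5, 2.63 for Sult2a6, 2.28 for Sult2a2, 3.91 for Sult2a1 and 2.34 for Sult2a4. It was 3.34 for Slc22a26, 1.09 for Prodh2, 1.20 for Ces1c, 1.62 for Ces1d, 0.87 for Ttc36, 0.84 for Gchfr, 0.98 for Nlrp6 and 0.97 for Fuom. It was -1.46 for St5, -0.85 for Ufm1 and -0.75 for the Myl12b entry ENSMUSG00000117098. The fitted value for Gm20075 was -9.39, which depends on the prior count since all CV libraries were at 0.

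Among 220 groups of 4 libraries, the 4 groups of each gene named in the report, 15 had 1 library far from the other 3 by Dixon's test, which flags about 1 in 20 by chance. Low libraries were CV replicate 3 in Sult2a1 (1288 CPM), EV replicate 2 and EM replicate 1 in Sult2a4 (2.38 and 11.2 CPM), CV replicate 1 in Slc10a1 (597 CPM), CM replicate 1 in Abcc2 (175 CPM), EV replicate 2 in F10 (123 CPM) and CM replicate 2 in Cyp2e1 (2364 CPM). High libraries were CV replicate 1 in Slc22a26 (200.02 CPM) and in Top2a (0.997 CPM), CM replicate 3 in Otud1 (6.33 CPM) and in Ugt1a1 (932 CPM) and EM replicate 2 in Dusp1 (48.6 CPM). The others were CM replicate 2 in Cyp2b10 (1691 CPM), CV replicate 3 in Cyp2e1 (7668 CPM) and EM replicate 1 in Top2a (22.3 CPM).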

How the results depend on the processing

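Against 17 genes called for the interaction, 13 higher and 4 lower, library totals gave 26 (14 lower), a filter of 1 CPM in 8 libraries 24 (7 lower) and limma with a trend 26 (9 lower). Sample weights in voom gave 165 (138 higher, 27 lower) and DESeq2 450 (298 and 152). Leaving out 1 library gave 10 to 208 genes, 7 to 157 higher and 2 to 51 lower. Counts moved by over 1.5 times without CV replicate 3 (26), EV replicate 3 (28) and EM replicate 2 (26), beside the libraries named in the report. Leaving out CM replicate 2 and EM replicate 1 together gave 157 (124 and 33). A fit with the replicate number as a block called 79 (67 and 12), all 17 among them. Same-numbered libraries did not deviate together: 24 correlations ran from -0.052 to 0.096, and 6 of 16 libraries correlated best with their own number, so the numbers are not taken as pairs. The interaction of Cyp2b10 (-0.14) changed sign without CM replicate 2 (0.19), without that library and EM replicate 1 together (0.17) and with sample weights (0.013), never passing the test, and ran from -0.30 to 0.19 with 1 library left out. In each case the cause was not tested, except that leaving out libraries means fewer samples.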
